A study of Mus musculus with 9 samples.

Results

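The intergenic loci without strand were the assembled transcribed regions that lay outside annotated genes and to which the deposited table gave no strand. On each chromosome the table's loci formed 3 runs sorted by position, and the loci of the last run, which carried no strand, were kept where they lay more than 10 kb from any gene of GENCODE M21 on GRCm38. With each interval counted once, 1349 of 54913 loci were chosen in this way, which was 3.50% of the 38550 loci without strand. The nearest locus kept lay 10011 bp from a gene and the nearest left out 9987 bp. RNA-seq was used to compare spermatogonial stem cells (SSC), iPSC derived from them (SSCiPSC) and iPSC derived from fetal fibroblasts (fiPSC), with 3 libraries in each group. The SSC were primary testis cells of pups, sorted with magnetic beads for Gfra1 and used at passage 0, and both kinds of iPSC were clonal lines at passages 10 to 11 grown with LIF and doxycycline per the labels. The study's methods describe instead a stepwise withdrawal of doxycycline and a later passage, with a sort for SSEA1 before RNA was taken, and which of the accounts holds for these libraries is not settled here. All 3 groups, SSC included, carried the allele Gt(ROSA)26Sortm1(rtTA*M2)Jae, which expresses the doxycycline-controlled activator from a ubiquitous locus. All also carried a collagen locus allele, Col1a1tm3(tetO-Pou5f1,-Sox2,-Klf4,-Myc)Jae/J, from which doxycycline switches on the reprogramming factors, so an endogenous Pou5f1 or Klf4 transcript and the transgene could not be told apart in their levels. The study calls the libraries biological samples. Nothing in the labels ties the 3 libraries of a group to separate animals or lines, so the p-values below measure the spread between these libraries, which may be technical.

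RNA from outside annotated genes is of several kinds. It can come from long noncoding RNA genes not in the annotation, from enhancers, from transcription that runs on past the end of a gene, and from repeats whose promoters are active. A transcript assembler can read the strand of a piece from a splice junction, and pieces with no junction can stay without strand, so that a single transcript may be cut into several short pieces. Mouse pluripotent cells are known for transcripts started in long terminal repeats of endogenous retroviruses, and male germ cells for transcribing much of the genome outside genes. The sequence of the loci themselves, with its repeats and base composition, was not analysed here.

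Of the 1349 loci, 269 overlapped a gene of RefSeq that GENCODE M21 lacks or draws shorter, and those genes numbered 160. The first RefSeq gene overlapped was a long noncoding RNA for 172 of the loci, a protein-coding gene for 64 and a pseudogene for 26. A promoter window, from 250 bases before to 50 bases after the RefSeq start on GRCm38.p6, was at hand for 98 of the 160 genes. Shown here are the windows of 6 RefSeq genes whose overlapping loci moved between SSC and iPSC, the last of them with a locus that fell. They lie at chr6:125430680-125430979 on the plus strand (Gm32673), chr2:65415306-65415605 on the minus strand (Gm34739), chr7:43253504-43253803 on the plus strand (Gm35588), chr7:113050539-113050838 on the minus strand (Gm40452), chr4:124353037-124353336 on the minus strand (Gm52719) and chr1:186587072-186587371 on the plus strand (Gm35546). Each is written 5′ to 3′ on the strand of its gene, and capitals mark CG dinucleotides.
Gm32673: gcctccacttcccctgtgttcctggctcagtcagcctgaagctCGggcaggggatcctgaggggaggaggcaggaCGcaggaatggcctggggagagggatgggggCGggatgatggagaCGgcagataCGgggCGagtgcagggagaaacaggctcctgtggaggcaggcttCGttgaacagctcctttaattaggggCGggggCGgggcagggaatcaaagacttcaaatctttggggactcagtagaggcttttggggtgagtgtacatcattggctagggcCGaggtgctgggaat
Gm34739: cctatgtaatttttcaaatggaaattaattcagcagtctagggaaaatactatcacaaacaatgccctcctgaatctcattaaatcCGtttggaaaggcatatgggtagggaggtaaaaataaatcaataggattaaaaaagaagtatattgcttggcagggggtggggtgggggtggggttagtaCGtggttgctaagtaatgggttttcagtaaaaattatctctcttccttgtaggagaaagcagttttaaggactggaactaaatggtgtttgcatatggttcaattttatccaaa
Gm35588: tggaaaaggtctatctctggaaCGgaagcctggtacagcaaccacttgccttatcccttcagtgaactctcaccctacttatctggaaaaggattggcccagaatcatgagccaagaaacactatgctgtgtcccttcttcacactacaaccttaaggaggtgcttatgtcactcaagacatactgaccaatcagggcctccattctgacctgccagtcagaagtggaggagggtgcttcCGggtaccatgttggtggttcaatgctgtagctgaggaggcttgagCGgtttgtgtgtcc
Gm40452: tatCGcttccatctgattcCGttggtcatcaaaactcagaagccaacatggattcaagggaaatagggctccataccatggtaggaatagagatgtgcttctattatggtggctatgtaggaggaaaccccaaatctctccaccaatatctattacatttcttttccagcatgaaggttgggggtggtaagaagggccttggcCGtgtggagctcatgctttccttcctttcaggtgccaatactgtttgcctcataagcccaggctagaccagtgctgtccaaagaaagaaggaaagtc
Gm52719: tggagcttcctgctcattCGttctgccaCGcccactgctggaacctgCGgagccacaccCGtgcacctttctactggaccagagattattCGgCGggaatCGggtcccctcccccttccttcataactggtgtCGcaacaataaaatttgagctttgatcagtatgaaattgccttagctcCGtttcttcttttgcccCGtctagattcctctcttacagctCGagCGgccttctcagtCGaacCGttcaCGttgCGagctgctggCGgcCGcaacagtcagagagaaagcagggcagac
Gm35546: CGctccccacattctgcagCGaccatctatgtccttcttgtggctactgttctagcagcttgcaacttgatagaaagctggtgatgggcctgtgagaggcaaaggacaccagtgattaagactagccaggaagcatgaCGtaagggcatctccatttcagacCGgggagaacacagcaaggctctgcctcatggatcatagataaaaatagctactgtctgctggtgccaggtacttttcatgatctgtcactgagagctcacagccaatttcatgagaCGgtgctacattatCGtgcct
The windows of Gm52719 and Gm32673 held 18 and 10 CG dinucleotides, above the median of 7 over all 32851 RefSeq windows, while those of Gm35546, Gm35588, Gm40452 and Gm34739 held 6, 3, 3 and 2. Over the 133 windows of all overlapped genes the median was 4. The CCAAT box (CCAAT on either strand) was found in the windows of Gm32673, Gm35588, Gm40452 and Gm35546, and in 37.4% of all windows. The letters TATAAA and the octamer ATTTGCAT, each searched on both strands, were in none of the 6 windows, and in 13.6% and 1.74% of all windows. Gm32673 was overlapped by 8 of the loci, of which 5 were higher in SSCiPSC than in SSC, and Gm35588 by 6, of which 4 were higher. Gm34739 was overlapped by 8 with 3 higher, Gm52719 by 5 with 2 higher and Gm40452 by 2, both higher. Gm35546 was overlapped by a single locus, which was lower in SSCiPSC.

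The loci were short, and their distance to genes beyond the 10 kb of the rule varied widely. Their median length was 635 bp (interquartile range 414 to 927), beside a median of 666 bp for the 4335 loci without strand inside introns and 21086 bp for the 14542 stranded loci. Of the 1349 loci, 175 were under 300 bp and 68 under 200 bp. Only 15 shared their interval with a stranded locus. Among these were the longest, chr3:91106490-91249416 with 142926 bp and chr5:104637535-104749356 with 111821 bp. Among the 1334 loci with an interval of their own the longest measured 6934 bp. The median distance to the nearest gene was 20959 bp, 246 loci lay over 50 kb away, and the farthest lay 383088 bp away. The nearest gene was protein-coding for 487 loci, a processed pseudogene for 354 and a lincRNA for 214. With respect to that gene, 716 loci lay past its end and 633 before its start. Chromosome 8 held 129 of the loci and chromosome 18 held 113, which was 14.8% of all intervals without strand on chromosome 18 and 9.03% of those on chromosome 8, while chromosome 19 held 26. Chromosome Y held 5, which was 45.5% of its 11 such intervals.

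The cell labels were first checked on marker genes. Gfra1, the receptor used in the sort, stood at 37.7, 34.1 and 23.9 FPKM (fragments per kilobase of transcript per 1000000 fragments) in SSC replicates 1, 2 and 3 and at no more than 0.171 FPKM in any iPSC library. Nanog, a core pluripotency factor, was listed at 0 in all 3 SSC libraries and ranged from 270 to 483 FPKM in iPSC. Of 10 pluripotency genes, 8 could be matched to a locus, and all 8 were higher in SSCiPSC, with a sum of 56.2, 60.8 and 64.5 FPKM in SSC and from 1952 to 2506 FPKM in iPSC. The germ line list of 12 genes, all with a locus, summed to 605, 712 and 483 FPKM in SSC, where Dazl was the most abundant, to 348, 584 and 400 FPKM in SSCiPSC and to 305 to 416 FPKM in fiPSC, so SSCiPSC replicate 2 stood above SSC replicate 3. Of its genes 7 were lower in SSCiPSC, with Gfra1, Ret, Zbtb16 and Dazl among them, and 4 were higher, namely Sall4, Lin28a, Kit and Etv5, which pluripotent cells also express.

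The SSC libraries also held markers of the somatic cells of the testis. The Sertoli list had a locus for 6 of 7 genes and summed to 1004, 998 and 827 FPKM in SSC replicates 1, 2 and 3, led by Clu. In iPSC the same list summed to between 170 and 303 FPKM, of which Rhox5, which pluripotent cells also express, held 162 to 296, while Cst12 was listed at 0 in all 6 iPSC libraries. The Leydig list, with 3 of 6 genes, summed to 160, 124 and 236 FPKM in SSC, led by Cyp11a1, and to no more than 0.358 in iPSC. The mast cell list of 3 genes differed most between SSC libraries, at 64.9, 204 and 601 FPKM, led by Tpsab1, which was at 0 in every iPSC library. The macrophage list of 4 genes stood at 17.7, 7.52 and 61.8 FPKM in SSC, the fibroblast list of 4 at 52.5, 46.6 and 129, the peritubular myoid list of 3 at 65.5 to 82.9 and the endothelial list of 3 at 92.3, 48.2 and 84.6. In iPSC the macrophage list stood at 8.16 to 14.2 FPKM (mostly Cd68), the fibroblast list at 5.97 to 22.7 and the myoid list at 2.06 to 7.52. The mast cell and endothelial lists stood at 23.9 to 48.4 and 79.7 to 125 FPKM there, nearly all of it Kit and Pecam1, while Cdh5 and Kdr were at no more than 0.103. None of these lists had all its genes at 0 in SSC, and no marker with a locus in them was at 0 in all 3 SSC libraries. The part of these cells in the levels of intergenic loci in SSC was not tested. In such bulk samples, fewer cells of a type and less RNA per cell cannot be told apart.

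Most intergenic loci had RNA in iPSC and no detected RNA in SSC. A value above 0 was present for 330, 464 and 307 loci in SSC replicates 1, 2 and 3, for 86.4%, 82.4% and 84.8% of the 1349 loci in SSCiPSC and for 85.6%, 86.9% and 87.8% in fiPSC. The mean share was 27.2% ± 6.29 in SSC, 84.6% ± 2.01 in SSCiPSC and 86.8% ± 1.12 in fiPSC (SD, n = 3 libraries each). The SSC and iPSC libraries did not overlap, while the 2 kinds of iPSC did. With presence taken as at least 1 FPKM the mean shares were 20.5% ± 0.997, 46.5% ± 4.48 and 53.9% ± 2.36 in that order, and no 2 groups overlapped. For values above 0 the exact permutation test over libraries gave p = 0.1 for SSC vs each kind of iPSC, the smallest two-sided value that 3 against 3 can give, so it cannot pass 0.05, and p = 0.2 for fiPSC vs SSCiPSC. All 6 iPSC libraries and no SSC library held 611 of the loci (45.3%), all 9 libraries held 125, and all 3 SSC libraries but no iPSC library held 43. Seen in SSCiPSC but in neither other group were 16 loci, and seen in fiPSC alone were 27. Loci inside introns were present for 51.7%, 67.2% and 42.6% in SSC and for 73.7% to 81.4% in iPSC. For stranded loci the shares were 88.6%, 93.2% and 87.5% in SSC and 92.8% to 94.9% in iPSC. The difference between the kinds of loci was not tested.

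Presence depends on depth, and the SSC libraries were the shallow ones. From the steps between low FPKM values, the libraries were estimated to hold 1.77, 4.63 and 1.39 M fragments in SSC, 15.8, 13.7 and 15.0 M in SSCiPSC and 13.3, 17.6 and 15.5 M in fiPSC (M, 1000000). A single fragment per kb was therefore worth 0.565, 0.216 and 0.722 FPKM in SSC and from 0.0568 to 0.0752 in iPSC. The kb is counted here after taking the estimated fragment length, 146 to 159 bp, off the length of a locus. Among the 1020 loci of at least 400 bp with an interval of their own, whose fragments could be estimated, 249, 349 and 229 were present in the 3 SSC libraries. Thinned to the depth of SSC replicate 1, an SSCiPSC library was expected to hold between 501 and 565 of them and a fiPSC library between 572 and 590. At the depth of SSC replicate 2 the expected numbers were 688 to 754 and 757 to 765, and at that of replicate 3 they were 449 to 508 and 515 to 534. Each SSC library thus held fewer of the loci than any iPSC library thinned to its depth. Since the loci were assembled from reads of libraries of unequal depth, how far depth decided which loci were defined at all cannot be told apart from the cell type.

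**Figure D1:**
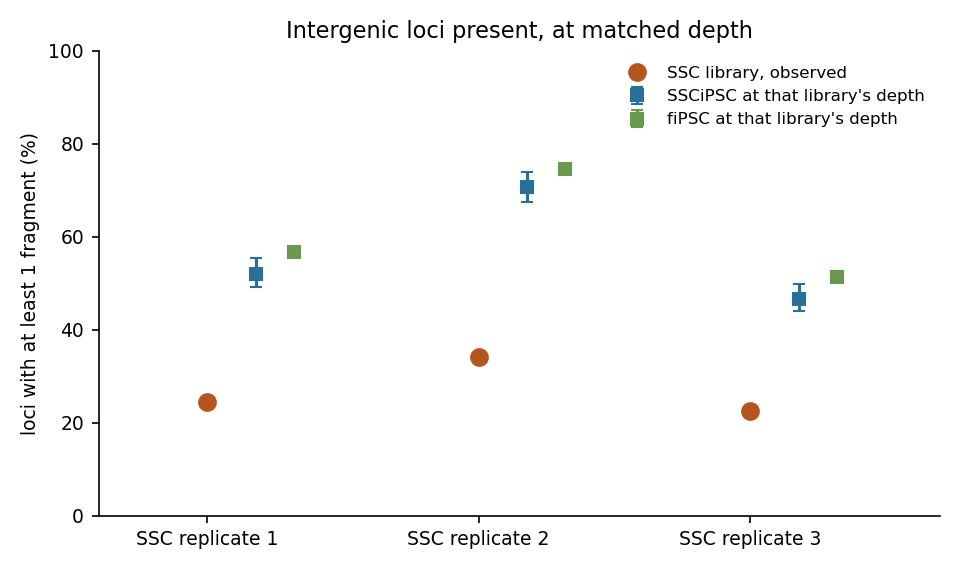
Share of the 1020 loci of at least 400 bp with at least 1 fragment (vertical axis, %), observed in each SSC library (circles) and expected for SSCiPSC and fiPSC libraries thinned to the depth of that SSC library (squares, mean of 3 libraries, with bars from the lowest to the highest). SSC stood at 24.4%, 34.2% and 22.5%, and thinned SSCiPSC at 49.1 to 55.4%, 67.4 to 73.9% and 44.0 to 49.8%.

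The absence from SSC was also seen for loci that the pooled SSC libraries, 7.79 M fragments in all, could well have shown. At the level of SSCiPSC, 177 of the 1020 loci would have given at least 10 fragments in the pooled SSC. Of these, 83 had none (46.9%), 116 had under 0.1 times the expected number, 143 were under 0.5 times the expected number and 23 were between 0.5 and 2 times. At the level of fiPSC the count was 203 loci, of which 96 had no SSC fragment (47.3%). Of the 22 loci whose SSCiPSC level would give at least 10 fragments even in the shallowest SSC library, 16, 16 and 14 were present in SSC replicates 1, 2 and 3. Loci were also missing the other way round. Of 134 loci with at least 10 SSC fragments, 53 had none in SSCiPSC and 82 were under 0.1 times their SSC level there, while 23 lay within 0.5 to 2 times it. In fiPSC 50 of the 134 had none. Each of these sets was chosen by its level in the first group named, so the counts are a description. A locus with no fragment in the pooled SSC could still have held up to 0.385 fragments per 1000000, the rate that 3 fragments correspond to, and this limit, like the intervals below, covers counting error only.

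**Figure D2:**
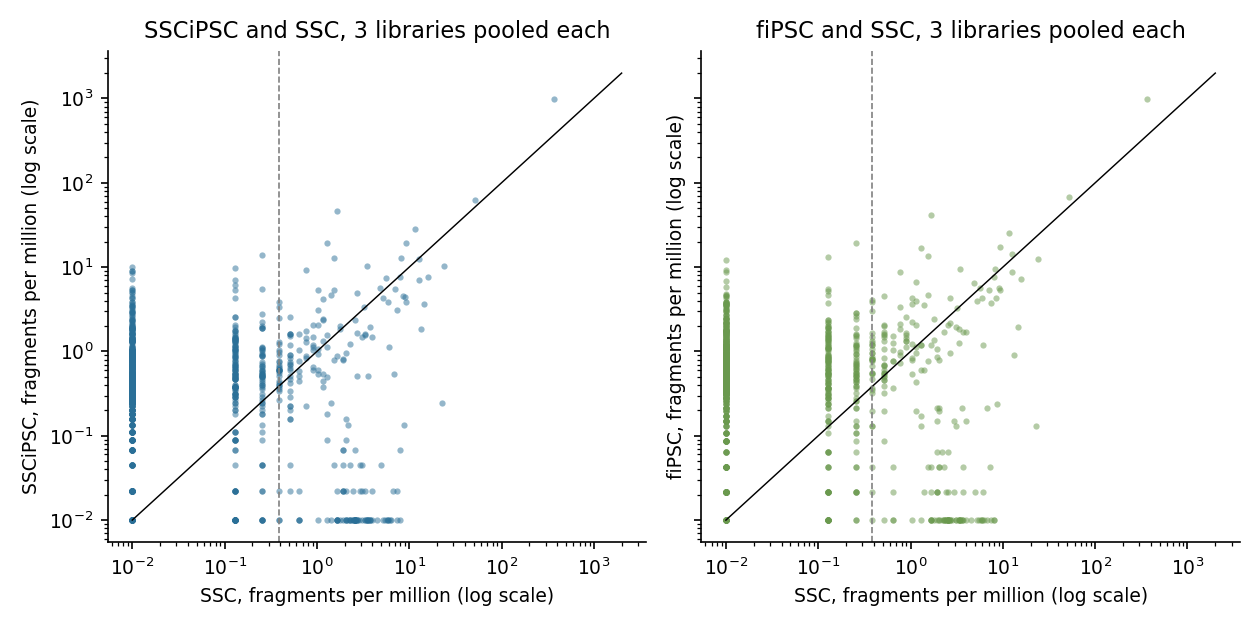
Estimated fragments per 1000000 in each of the 1020 loci, with the pooled SSC libraries on the horizontal axis and the pooled SSCiPSC (left) or fiPSC libraries (right) on the vertical axis, both logarithmic, with loci at 0 drawn at 0.01, the line of equal levels and a dashed line at 3 SSC fragments (0.385 per 1000000). Points pile up on the left edge (iPSC only) and, in smaller number, on the lower edge (SSC only), and the highest point is the locus on chromosome 5.

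Summed together, the 1020 loci took a larger part of the iPSC libraries. They were assembled from libraries of unequal depth, with SSC the shallow ones. How far depth decided which loci enter this sum cannot be told apart from the cell type. The loci held 1269, 1012 and 1002 fragments per 1000000 in SSC replicates 1, 2 and 3, 2039, 2063 and 2065 in SSCiPSC and 2116, 1908 and 2405 in fiPSC. The ratio of means was 1.88 for SSCiPSC vs SSC and 1.96 for fiPSC vs SSC, with no overlap between libraries (exact permutation p = 0.1 for both, the smallest possible). For fiPSC vs SSCiPSC the ratio was 1.04 (exact permutation p = 0.7). A single locus, chr5:62210351-62214705 (4354 bp), carried much of this sum. It stood at 113, 77.0 and 90.1 FPKM in SSC, at 213, 248 and 243 in SSCiPSC and at 234, 183 and 286 in fiPSC, so that no SSC library reached the level of an iPSC library. Without it, 793, 689 and 624 per 1000000 were left in SSC and between 1021 and 1206 in iPSC, and the ratios to SSC were 1.52 for SSCiPSC and 1.65 for fiPSC.

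Level by level, the shift in SSCiPSC vs SSC went mostly toward higher levels in iPSC. Each locus was tested with limma on log2(FPKM + 1) if it reached 1 FPKM in 3 or more of the 6 libraries compared, and p-values were adjusted over every locus of the table that did so. Of the 1349 intergenic loci, 550 passed that filter, and 306 were higher and 97 lower in SSCiPSC at an adjusted p under 0.05. Over all 36544 loci tested the background was 26.2% higher and 24.1% lower, and among the intergenic loci tested the shares were 55.6% and 17.6%. The median log2 change was 1.33 for the intergenic loci tested and 0.11 for all loci tested. A locus silent in SSC could pass the filter only by being high in all 3 SSCiPSC libraries, so it had to differ, and neither these shares nor the medians serve as support. Inside introns 360 loci were higher and 401 lower of 1748 tested, and of 12100 stranded loci tested 4033 were higher and 3526 lower. Leaving out 1 SSC library with the same filter left 297 to 306 higher but only 31 to 32 lower calls, of 468 to 476 intergenic loci tested. Of all loci tested in these fits, 41.9% to 44.5% were called. Leaving out 1 SSCiPSC library left 99 to 109 intergenic calls, of which 20 to 24 were higher, since only 271 to 276 loci then passed. Beside these calls stood 34.7% to 37.5% of all loci tested. Asking for 1 FPKM in only 2 of the 5 remaining libraries, a setting chosen after seeing these counts, gave 393 to 398. These were calls of 637 to 666 intergenic loci tested, beside 35.6% to 37.6% of all loci tested.

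For loci with no RNA in SSC the rise can be given only as a lower bound. The locus chr16:25523391-25523858 (467 bp), 80118 bp from the processed pseudogene Gm18896, was at 0 in all SSC libraries, at 23.8, 19.7 and 24.6 FPKM in SSCiPSC and at 13.9, 10.5 and 13.2 FPKM in fiPSC. No iPSC library overlapped SSC, and SSCiPSC was at least 18.7-fold and fiPSC at least 10.0-fold higher, counted against 3 fragments over the pooled SSC libraries. Its neighbour chr16:25524470-25525003 was at 15.6, 10.8 and 17.6 FPKM in SSCiPSC, at 5.56, 10.2 and 10.5 in fiPSC and again at 0 in SSC. At chr19:56511158-56511983 (825 bp), 17184 bp past the end of Dclre1a, which encodes a nuclease of DNA crosslink repair, the levels were 13.5, 19.2 and 12.8 FPKM in SSCiPSC, 12.7, 10.1 and 17.4 in fiPSC and 0 in SSC. There SSCiPSC was at least 26.3-fold and fiPSC at least 23.0-fold higher than SSC.

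A locus seen in every library allowed a ratio. At chr8:107678736-107680234 (1498 bp), 10392 bp past the end of the processed pseudogene Gm8940, SSC stood at 1.27, 1.13 and 1.62 FPKM, SSCiPSC at 43.4, 29.6 and 29.5 and fiPSC at 30.9, 31.3 and 31.0. The groups of iPSC overlapped each other and lay far above SSC, with a log2 change of 3.89 (SE 0.23, limma adjusted p = 9.76e-05) for SSCiPSC and 3.78 (SE 0.16, limma adjusted p = 3.77e-05) for fiPSC. By fragments, 13 in SSC and 2067 in SSCiPSC, the ratio was 27.8 (95% exact interval 16.2 to 52.3). The locus chr18:20776470-20776882 (412 bp), 30066 bp before the start of B4galt6, a galactosyltransferase of glycolipid synthesis, was at 0 in SSC, at 13.6, 11.7 and 14.4 FPKM in SSCiPSC and at 13.4, 14.0 and 15.3 FPKM in fiPSC. B4galt6 itself was at 4.87, 2.74 and 2.86 FPKM in SSC and at 21.5 to 38.3 FPKM in iPSC, so gene and locus moved in the same direction.

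The loci that fell were spread over many chromosomes, with 16 and 4 of the 97 in a pair of clusters near Gm9655. The locus chr8:82720108-82720442 (334 bp), 27174 bp before the start of the processed pseudogene Gm9655, was at 31.9, 14.6 and 20.5 FPKM in SSC and at 0 in all 6 iPSC libraries. Also at 0 in all iPSC libraries was chr8:82673562-82673982 (420 bp), at 21.5, 9.87 and 16.5 FPKM in SSC, and SSC was at least 53.4-fold above SSCiPSC. At chr8:82729836-82730564 (728 bp) SSC stood at 17.8, 9.85 and 10.1 FPKM, and the only iPSC signal was 1 fragment in SSCiPSC replicate 2 (ratio by fragments 298, with a 95% exact interval of 51.1 to 1.20e+04). The locus overlapping Gm35546, chr1:186589170-186589584 (414 bp), was at 30.8, 25.3 and 11.3 FPKM in SSC, at 0 in SSCiPSC and at 0.289, 0 and 0 FPKM in fiPSC. SSC was at least 91.6-fold above SSCiPSC there. At chr14:82922719-82923121 (402 bp) the SSC levels were 18.5, 12.4 and 5.92 FPKM and every iPSC library was at 0. In chr3:6764985-6765314 (329 bp), 12913 bp before the start of the olfactory receptor pseudogene Olfr289-ps1, SSC stood at 16.4, 12.6 and 16.8 FPKM and iPSC at 0 to 1.45 FPKM. SSC replicate 3 was the lowest of the SSC libraries at the chromosome 1 and chromosome 14 loci, the highest in mast cell, macrophage, fibroblast and Leydig markers, and the lowest in Sertoli, myoid and germ line markers. The somatic lists given above stood higher in SSC than in iPSC alongside all of these loci, apart from the endothelial and macrophage lists, whose SSC and iPSC libraries overlapped, and their part in the fall was not tested.

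In fiPSC, too, more intergenic loci were higher than lower in comparison with SSC. The comparison uses the same 3 SSC libraries as that of SSCiPSC, so the 2 are set side by side and are not independent. Of 641 intergenic loci tested, 377 were higher and 90 lower in fiPSC, beside a background of 28.0% higher and 23.7% lower over 38007 loci, with a median log2 change of 1.43 beside 0.17 for all loci tested. The same caution on the filter applies. Leaving out any 1 fiPSC library left 100 to 104 calls of 293 to 296 tested, with 23 to 24 higher and 77 to 80 lower. Beside these calls stood 33.6% to 35.6% of all loci tested. Leaving out an SSC library left 379 to 387 higher and 20 to 30 lower of 558 to 560 tested, beside 46.7% to 49.6% of all loci called. Of the loci, 267 were called higher and 89 lower in both comparisons, and none was called in opposite directions. A further 102 were higher in fiPSC but too low in SSCiPSC to be tested, and 33 the other way round.

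Several of the most abundant loci were present in all 9 libraries. Among loci of at least 300 bp the highest was chr12:97061428-97061789 (361 bp), 36917 bp past the end of the lincRNA Gm47397. It stood at 252, 279 and 213 FPKM in SSC, at 453, 267 and 339 in SSCiPSC and at 462, 496 and 328 in fiPSC. SSCiPSC overlapped SSC, and the log2 change was 0.48 (SE 0.22, limma adjusted p = 0.116). In fiPSC it was 0.77 (SE 0.19, limma adjusted p = 0.0162), and under quantile normalization both changes turned negative. The SSCiPSC change then passed the threshold as lower (limma adjusted p = 0.0302), and the fiPSC change did not pass (limma adjusted p = 0.241). At the chromosome 5 locus described above the log2 change was 1.33 (SE 0.17) in SSCiPSC and 1.31 (SE 0.21) in fiPSC, with limma adjusted p = 0.00105 and 0.00286. The locus chr16:16197568-16197950 (382 bp), in the RefSeq pseudogene D16Ertd727e, was at 25.1, 29.8 and 32.2 FPKM in SSC, 75.3, 84.3 and 81.2 in SSCiPSC and 76.8, 78.1 and 72.6 in fiPSC. These groups were tight, and the log2 change was 1.44 (SE 0.14) in SSCiPSC. In the RefSeq pseudogene Gm4674, past the end of Gpr180, which encodes an orphan receptor-like protein, chr14:118181477-118182128 rose from 14.9, 22.8 and 10.3 FPKM in SSC to 35.9, 42.8 and 39.2 in SSCiPSC and 35.6, 30.4 and 39.1 in fiPSC.

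Other abundant loci fell, rose or overlapped between the groups. At chr9:16609448-16609868 (420 bp), 108163 bp before the start of Fat3, an atypical cadherin, SSC stood at 96.8, 46.9 and 57.9 FPKM, SSCiPSC at 30.1, 22.1 and 31.9 and fiPSC at 30.8, 27.8 and 23.7. All SSC libraries lay above all iPSC libraries, with a log2 change of -1.18 (SE 0.29, limma adjusted p = 0.0151) in SSCiPSC. At chr15:103619431-103619912 SSC was at 19.2, 17.4 and 40.2 FPKM and iPSC between 14.8 and 21.1, and the groups overlapped. The locus chr1:29737234-29737574 (340 bp) was at 9.26 and 9.45 FPKM in SSC replicates 1 and 2, at 0 in replicate 3 and at 27.6 to 45.9 FPKM in iPSC, and was called higher in SSCiPSC. Loci under 300 bp reached still higher values, and a single fragment weighs more in a short locus. Fragments were estimated at 146 to 159 bp, so some of these loci were about as short as a fragment or shorter. The number of fragments behind their FPKM was not estimated, and neither a high value nor a 0 in SSC can be weighed by it. How far length bears on these levels was not tested. At chrY:1718717-1719007 (290 bp) the levels were 224, 147 and 293 FPKM in SSC and 1829 to 2378 in iPSC, whereas chrX:128548311-128548473 (162 bp) stood at 665, 762 and 659 FPKM in SSC and 586 to 718 in iPSC. At chr3:159330230-159330356 (126 bp) SSC was at 0 and iPSC at 517 to 706 FPKM. The median level of the 68 loci under 200 bp was 19.0 to 32.5 FPKM in iPSC libraries, and that of the 445 loci from 600 to 1000 bp was 0.439 to 0.828.

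The loci were bunched along the chromosomes. Loci no more than 10 kb apart were chained, which gave 137 clusters of at least 3 loci with 782 of the 1349 loci (58.0%), and left 337 single loci and 115 pairs. The median cluster spanned 9082 bp, 57 clusters held at least 5 loci and 16 at least 10. Members of a cluster may be pieces of a single transcript and are not independent. In SSCiPSC vs SSC, 70 clusters held only higher calls, 16 only lower calls, 2 held both and 49 neither. For fiPSC vs SSC the numbers were 73, 14, 3 and 47. Cluster levels below are means over the loci of a cluster weighted by length, and the exact permutation p between groups without overlap is 0.1, the smallest possible. Fragments of a cluster, and the ratios and bounds drawn from them, cover only those of its loci whose fragments could be estimated. Where a cluster is at or near 0 in one of the groups compared, its loci could pass the filter of the test only through the other group and had to differ, so the numbers of its loci called, here and below, are a description.

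**Figure D3:**
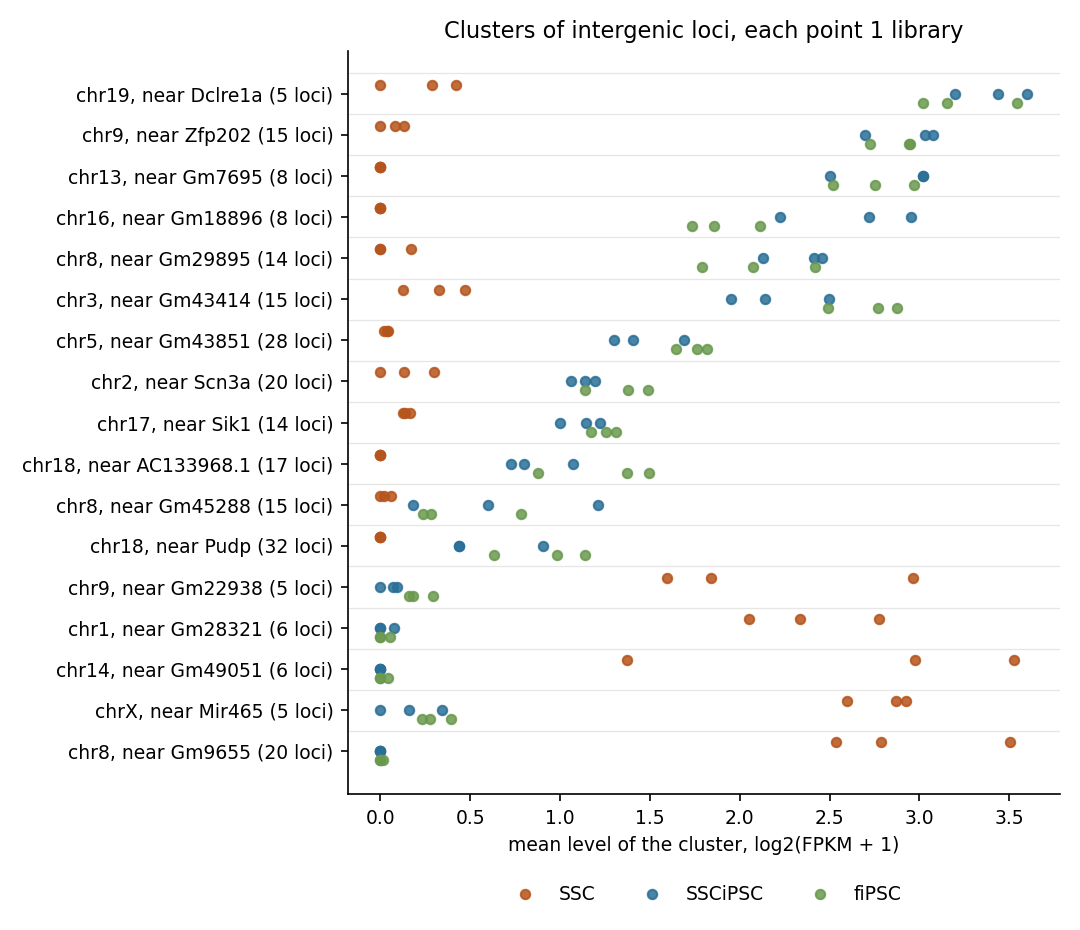
Level of 17 clusters in each library (horizontal axis, log2 of mean FPKM + 1, each point 1 library of SSC, SSCiPSC or fiPSC), labelled by chromosome, nearest gene and number of loci. In 12 clusters every SSC library lay below every iPSC library, and in 5 every SSC library lay above. Some of these clusters were chosen for the size of their change from SSC, so these counts are a description. Over all 137 clusters, SSCiPSC lay above SSC without overlap in 97 and below it in 20. For fiPSC the numbers were 102 and 20.

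The cluster on chromosome 9 near Zfp202 was at or near 0 in SSC and present in every iPSC library. At chr9:40224175-40238520, past the end of Zfp202, a zinc finger repressor gene, 15 loci covered 9763 bp of a span of 14345 bp. The cluster stood at 0, 0.0558 and 0.0969 FPKM in SSC, 5.49, 7.17 and 7.42 in SSCiPSC and 6.68, 5.61 and 6.72 in fiPSC. All 15 loci reached the filter, which with SSC near 0 they could do only through iPSC, and were called higher in both kinds of iPSC. In the 11 loci whose fragments could be estimated, the counts were 3 in SSC, 1771 in SSCiPSC and 1743 in fiPSC. The ratio to SSC by these fragments was 103 (95% exact interval 35.2 to 501) for SSCiPSC. Zfp202 itself was at 5.54, 5.40 and 2.78 FPKM in SSC and at 7.12 to 9.28 FPKM in iPSC, with a limma adjusted p of 0.0661 in SSCiPSC vs SSC. Past the end of Dclre1a, 5 loci at chr19:56511158-56515095 stood at 0.221, 0 and 0.338 FPKM in SSC and at 7.10 to 11.1 FPKM in iPSC.

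The clusters of chromosomes 13 and 16 had no SSC fragment. At chr13:63956888-63965847, 8 loci before the start of Gm7695 stood at 7.11, 4.67 and 7.12 FPKM in SSCiPSC and 4.72, 6.82 and 5.74 in fiPSC. The 8 loci at chr16:25523391-25532858 stood at 5.58, 3.67 and 6.74 FPKM in SSCiPSC and 2.32, 2.62 and 3.33 in fiPSC, so here the libraries of the 2 kinds of iPSC did not overlap, but no locus of the cluster passed the test between them. By fragments, SSCiPSC was at least 76.9-fold and fiPSC at least 38.7-fold above SSC.

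Several of the clusters with the most loci were low in level. The largest, chr18:50701800-50795314, held 32 loci, 100381 bp from Pudp, and no SSC fragment, beside 531 fragments in SSCiPSC and 895 in fiPSC. Its level was 0.873, 0.353 and 0.356 FPKM in SSCiPSC and 1.20, 0.547 and 0.972 in fiPSC, and none of its loci was abundant enough to be tested against SSC. By fragments it was at least 30.9-fold higher in SSCiPSC and at least 50.1-fold higher in fiPSC. The next cluster along, chr18:50815937-50858753 with 17 loci, also had no SSC fragment, and 5 and 8 of its loci were called higher in SSCiPSC and fiPSC. At chr5:33475350-33537407, 28 loci stood at 0.0135, 0.0268 and 0.0301 FPKM in SSC, 1.65, 2.23 and 1.46 in SSCiPSC and 2.12, 2.39 and 2.52 in fiPSC, and 15 and 19 of its loci reached the filter through SSCiPSC and fiPSC, of which 14 and 18 were called higher. The 20 loci at chr2:65402793-65442147, which include those in Gm34739 past the end of the sodium channel gene Scn3a, stood at 0, 0.0930 and 0.231 FPKM in SSC and at 1.08 to 1.80 FPKM in iPSC. Near Sik1, a kinase gene induced by cAMP, 14 loci at chr17:31803863-31833711 stood at 0.0996, 0.0922 and 0.120 FPKM in SSC and 0.999 to 1.48 in iPSC. Sik1 itself was at 29.2, 35.5 and 41.5 FPKM in SSC and at 25.6 to 45.9 FPKM in iPSC, with overlap.

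Further clusters of this size lay on chromosomes 3 and 8. At chr3:37668777-37694672, 15 loci around Gm42211 stood at 0.253, 0.0909 and 0.387 FPKM in SSC, 2.86, 4.63 and 3.41 in SSCiPSC and 4.63, 5.83 and 6.34 in fiPSC. A member of the cluster shares its interval with a stranded locus, and without it the levels were 0.611, 0.219 and 0.934 FPKM in SSC, 2.21, 2.71 and 2.46 in SSCiPSC and 2.87, 3.71 and 3.72 in fiPSC, a smaller gap. The 14 loci at chr8:78066103-78097204 stood at 0, 0 and 0.127 FPKM in SSC and at 2.46 to 4.49 in iPSC, and without a member of the same kind at 0, 0 and 0.238 and at 1.66 to 2.95. Close by, 15 loci at chr8:78121452-78162888 varied among iPSC libraries, at 1.32, 0.133 and 0.513 FPKM in SSCiPSC and 0.217, 0.723 and 0.178 in fiPSC. None of the latter loci could be tested.

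Among clusters of at least 5 loci, the largest fall was on chromosome 8 near Gm9655. At chr8:82660720-82707445, 20 loci stood at 10.4, 5.91 and 4.80 FPKM in SSC. The only iPSC value above 0 was 0.00945 FPKM in fiPSC replicate 2. In the 18 loci whose fragments could be estimated, 515 fragments were found in SSC and none in iPSC, so SSC was at least 983-fold above SSCiPSC and at least 1022-fold above fiPSC. With iPSC at 0, a locus could be tested only by reaching 1 FPKM in all 3 SSC libraries, and the 16 that did were called lower in both kinds of iPSC. A second cluster on the same side of Gm9655, chr8:82720108-82735299 with 4 loci, stood at 14.6, 8.04 and 10.5 FPKM in SSC and at no more than 0.0348 FPKM in iPSC, and all 4 loci were lower in SSCiPSC. SSC replicate 1 was the highest library in both. Clusters of fewer than 5 loci held changes as large or larger, chosen here after their values were seen. The mean log2 change in SSCiPSC was -3.52 for this cluster of 4 and -2.94 for that of 20. It was -3.22 for 4 loci at chr9:59364162-59369564, before the start of Bbs4, which encodes a part of the ciliary BBSome, where SSC stood at 8.19, 11.0 and 8.48 FPKM and iPSC at no more than 0.128. At chr12:20087417-20097899, before the start of Gm9265, the change over 4 loci was 3.98, from 0, 0.343 and 0 FPKM in SSC to 11.8 to 24.9 in iPSC, where 1 of the 2 loci tested was called higher. That change rests on its loci under 400 bp, since the 2 longer ones held no SSC, 24 SSCiPSC and 18 fiPSC fragments.

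**Figure D4:**
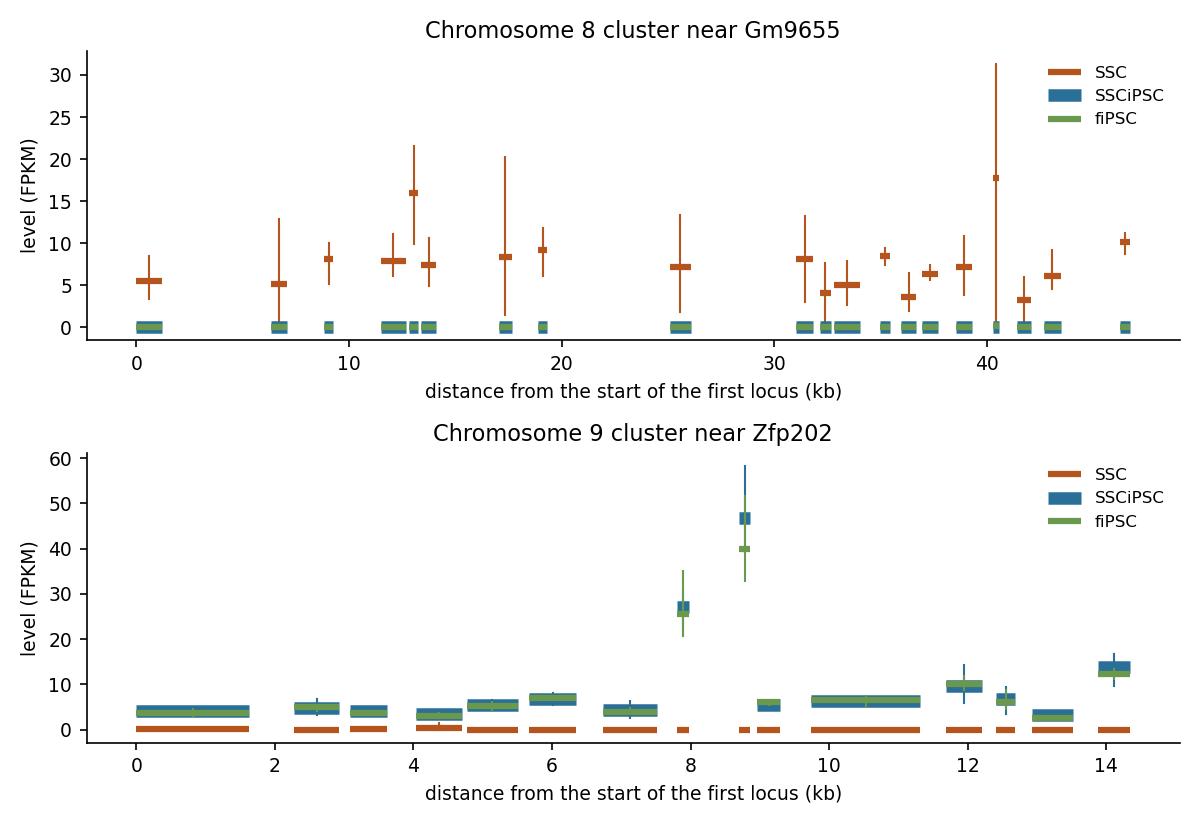
Loci of the chromosome 8 cluster near Gm9655 (top) and the chromosome 9 cluster near Zfp202 (bottom), drawn by distance from the start of the first locus (kb), with the level in FPKM on the vertical axis, where horizontal bars are group means over the extent of a locus and vertical lines run from the lowest to the highest of 3 libraries. The 20 loci at the top have RNA in SSC, with SSCiPSC and fiPSC bars lying on each other at 0, and the 15 loci at the bottom have RNA in iPSC, with SSC at or near 0.

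The other falling clusters named held fewer loci. On chromosome X, 5 loci at chrX:66855814-66874988, before the start of Mir465, a microRNA gene of the testis, stood at 6.61, 6.31 and 5.04 FPKM in SSC and at 0 to 0.310 FPKM in iPSC, and all 5 were lower in SSCiPSC. By fragments SSC was 53.6 times SSCiPSC (95% exact interval 30.8 to 101). The 6 loci at chr14:82916689-82930416 stood at 10.5, 6.88 and 1.59 FPKM in SSC, with SSC replicate 3 well below the others, and at 0 to 0.0304 FPKM in iPSC. At chr1:50828517-50850781, 6 loci stood at 4.06, 5.86 and 3.15 FPKM in SSC and at no more than 0.0539 FPKM in iPSC. At chr9:76690831-76698260, 5 loci stood at 2.02, 6.81 and 2.58 FPKM in SSC, where replicate 2 was the highest, and at 0 to 0.226 FPKM in iPSC. Chromosome 8 held 26 and chromosome 1 held 17 of the 97 loci lower in SSCiPSC than in SSC.

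Few intergenic loci passed the test between the 2 kinds of iPSC, and fiPSC stood slightly higher in some summaries. The same was seen at loci inside introns, while the summaries of stranded loci went both ways. Of 696 loci tested, 2 were higher and 3 lower in fiPSC, beside a background of 0.0236% higher and 0.0442% lower over all 33948 loci tested. With any 1 iPSC library left out under the same filter limma gave 0 calls, and it gave 0 to 2 when 1 FPKM was asked for in only 2 libraries. At an unadjusted p under 0.05 limma gave 104 of the 696 (14.9%), beside 11.7% of all loci tested. All fiPSC libraries lay above all SSCiPSC libraries at 94 of the 696 loci and below them at 30. Beside this stood 3194 and 3132 of all 33948 loci tested, and 167 and 79 of the 1664 tested inside introns. Stranded loci went the other way, with 996 above and 1506 below of 11004 tested. Together the 94 and 30 were 17.8% of the intergenic loci, beside 18.6% for all loci tested. The median log2 change was 0.15 for the intergenic loci, 0.01 for all loci tested and -0.04 for stranded loci. The median level over all 1349 loci was 1.04, 0.765 and 0.806 FPKM in SSCiPSC and 1.08, 1.11 and 1.20 in fiPSC, so the libraries of the 2 groups did not overlap (exact permutation p = 0.1, the smallest possible). The groups also stood apart at loci inside introns, with mean medians of 0.507 FPKM in SSCiPSC and 0.664 in fiPSC, and at stranded loci, with 6.27 and 6.48 (exact permutation p = 0.1 for both). The fibroblasts were not sequenced, so what the fiPSC kept or changed from them cannot be read from these data.

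The 5 loci that passed were near 0 in all libraries of 1 kind of iPSC. They could pass the filter only through the other kind, so they had to differ, and the values below are a description. At chr13:31682038-31682942 (904 bp), 50635 bp past the end of Foxf2, which encodes a forkhead factor, SSCiPSC stood at 3.81, 3.77 and 4.03 FPKM and every SSC and fiPSC library at 0. Neighbouring loci on chromosome 12, 24094 and 25940 bp before the start of Dhrs7, a dehydrogenase gene, behaved alike. The first, chr12:72689003-72690533 (1530 bp), was at 4.93, 4.02 and 2.89 FPKM in SSCiPSC, at 0 in fiPSC and at 0, 0 and 1.05 FPKM in SSC. The second, chr12:72690849-72691288 (439 bp), was at 2.01, 2.77 and 2.03 FPKM in SSCiPSC and at 0 elsewhere. Being neighbours, they may be pieces of 1 transcript.

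Higher in fiPSC was chr6:144961075-144962225 (1150 bp), 31610 bp past the end of Bcat1, which encodes a transaminase of branched-chain amino acids. It stood at 3.56, 3.14 and 4.18 FPKM in fiPSC, at 0.191, 0.0730 and 0.464 in SSCiPSC and at 0 in SSC. The other, chr11:57559162-57559516 (354 bp), 12996 bp before the start of the lincRNA Gm12243, was at 2.63, 3.38 and 5.26 FPKM in fiPSC, at 0 in SSCiPSC and at 0, 0 and 3.68 FPKM in SSC. The limma adjusted p was 0.00763 for the Foxf2 locus and between 0.0222 and 0.0417 for the other 4.

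**Figure D5:**
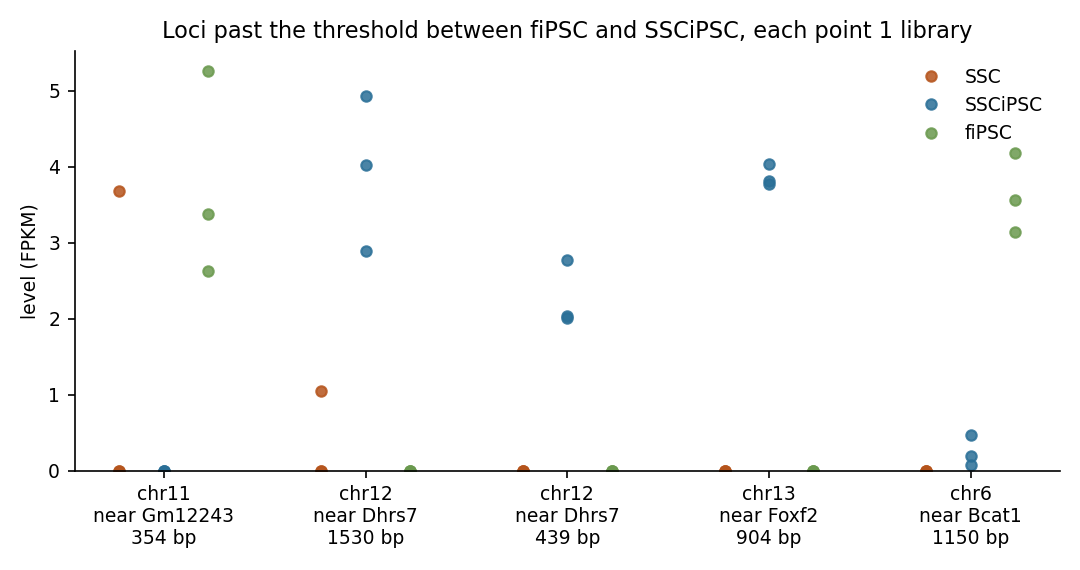
Level (FPKM, vertical axis) of the 5 loci that passed the test between fiPSC and SSCiPSC, each point 1 library of SSC, SSCiPSC or fiPSC, labelled by chromosome, nearest gene and length. In each locus the fiPSC and SSCiPSC points did not overlap, and the lower group stood at or near 0, at most 0.464 FPKM.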

How the data were processed

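The authors trimmed paired-end reads with Trimmomatic 0.32, aligned them with TopHat2 2.0.9 and Bowtie2 2.1.0, assembled loci with Cufflinks 2.2.1 and deposited a table of FPKM values for each library, per the submitters' processing notes. The notes name the build mm9, but the coordinates follow GRCm38, which was used here. Labels name both a ribosomal RNA depletion and a stranded mRNA kit. Whether starts count from 0 or 1 is not told, and length is end minus start. Repeated intervals were reduced to the first of their entries, which left out 36 entries, and 1 locus with a blank value was dropped. All columns of values matched a library, so 0 were unused. The loci and lists were chosen with earlier results of these data known.

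Fragments were recovered from loci of at least 400 bp, since low FPKM values are steps of 1 fragment; between 99.7% and 100% of low values came out whole within 0.1 of a fragment. Thinned presence was computed from those fragments without random draws. No count model was run. The test of each comparison was that of limma 3.58.1 (R 4.3.3; lmFit and a trended eBayes) on log2(FPKM + 1) over its 6 libraries. Loci passed at a Benjamini-Hochberg adjusted p below 0.05. Fold changes on this scale understate those of low loci. The test was tested on simulated data. Tables and plots used Python 3.11.15, numpy 2.4.6, pandas 2.3.3, scipy 1.17.1 and matplotlib 3.10.9.

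Regions named are, per comparison, the 5 rising and 5 falling loci with the largest change among those past the threshold without overlap, at least 300 bp long and with a mean of at least 10 FPKM in 1 group; the 5 highest loci of each group; the 10 clusters with most loci and, among those of at least 5 loci, the 5 with the largest change each way; and their nearest genes. The 5 loci that differ between fiPSC and SSCiPSC, the loci under 300 bp, the longest loci and the 4-locus clusters near Gm9655, Bbs4 and Gm9265 fall outside this rule and were chosen after their values were seen. The same holds for the clusters near Gm8940, Pja2 and Umpk-ps under the other observations. Gm32673, Gm35588, Gm40452 and Gm52719 also fall outside the rule and were named for their promoter windows, by the calls of their loci. The locus chr9:40238054-40238520 met the rule and is given only within its cluster near Zfp202.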

Additional observations from a re-analysis of the deposited data

Results flagged for a closer look

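At 5 intergenic loci the limma test of fiPSC against SSCiPSC, adjusted over all loci of the table, passed its threshold. Each locus could enter that test only through the group where it is high, so it had to differ, and the values are a description. The log2 change from SSCiPSC to fiPSC was 2.21 at chr11:57559162-57559516 near Gm12243 and 1.90 at chr6:144961075-144962225 near Bcat1. It was -2.28 at chr12:72689003-72690533 and -1.70 at chr12:72690849-72691288, both near Dhrs7, and -2.28 at chr13:31682038-31682942 near Foxf2. Each of these changes sets a group against another that is at or near 0, so its size depends on the pseudocount. Of the 17 alternatives in which each could be tested, the Foxf2 locus passed the threshold in 10, the first Dhrs7 locus in 6 and the other 3 loci in 4 each. The 17 leave out alternatives in which the loci fell below the filter. These were a mean of at least 5 FPKM, and the unchanged filter without a library of the group where the locus is high. No direction changed in any of the 17.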

How the results depend on the processing

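Against SSC, higher calls outnumbered lower ones in every alternative except the fits that left out an iPSC library under the unchanged filter. Loci silent in SSC had to differ to pass the main filter, so this is a description. Of the main calls, 75.9% were higher in SSCiPSC and 80.7% in fiPSC, beside 52.1% and 54.2% over all loci. With a mean of at least 5 FPKM asked for, these shares were 64.4% and 69.0%, beside 60.4% and 58.4%. The main counts were 403 of 550 tested for SSCiPSC vs SSC, 467 of 641 for fiPSC vs SSC and 5 of 696 for fiPSC vs SSCiPSC. Over all loci, 50.3%, 51.8% and 0.0678% of those tested were called. In that order, keeping only loci whose mean reached 5 FPKM gave 90, 84 and 0 calls of 141, 141 and 169 tested. Over all loci 58.7%, 61.0% and 0.0625% were called at that filter, so the intergenic counts against SSC were near those shares. No filter gave 702, 806 and 3 of 1322, 1333 and 1277, beside 37.7%, 40.6% and 0.0320% over all loci. Loci over 50 kb from genes gave 72, 83 and 1, and 1 locus per cluster gave 134, 154 and 2, with fewer loci tested in each. For fiPSC vs SSCiPSC alone, fitting all 9 libraries or a pseudocount of 0.1 gave 3 calls and an adjusted p below 0.01 gave 1. Leaving out each replicate in turn gave 99 to 338, 100 to 417 and 0 calls, of 271 to 476, 293 to 560 and 626 to 661 loci tested. Over all loci 34.7% to 44.5%, 33.6% to 49.6% and 0.00607% to 0.0306% of those tested were called in these fits. With 1 FPKM asked for in 2 libraries, chosen after seeing the data, the ranges were 393 to 529, 469 to 635 and 0 to 2, the last being 1 without SSCiPSC replicate 1, 0 without SSCiPSC replicate 2 and 2 without SSCiPSC replicate 3, then 0, 1 and 0 without fiPSC replicates 1, 2 and 3. Over all loci, 35.6% to 50.6%, 36.7% to 54.6% and 0.0168% to 0.0556% of those tested were called with 1 FPKM asked for in 2 libraries. Leaving out an SSC library under the unchanged filter gave 31 to 32 and 20 to 30 lower calls. Under quantile normalization the chr12:97061428-97061789 change turned to -0.79 for SSCiPSC, which passed the threshold, and to -0.38 for fiPSC, which did not. Median-ratio scaling moved the median change of all loci by 0.17 and 0.13, with intergenic medians of 1.38 and 1.46. The cause of these moves was not tested, except where fewer loci passed.

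The replicate numbers did not pair the libraries: same-numbered libraries had deviation correlations between -0.236 and 0.0214. With the number as a replicate block the counts were 403, 459 and 0.

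Presence as at least 1 FPKM changed the differences in share to 25.9, 33.4 and 7.46 percentage points, and as at least 3 fragments that between iPSC to 5.16, from 57.4, 59.6 and 2.22 in the main analysis. The summed ratio of SSCiPSC to SSC was 1.505 without the 10 highest loci and 1.52 without the largest. Clusters of at least 5 loci numbered 57. Over the alternatives, the named loci gave 1435 results with the same call, 106 that lost it, 6 that gained it and 2 reversed. For the named clusters 204 results stayed the same and 38 moved. The depth of SSC limits all absences. A locus with a single fragment already reads 0.216 to 0.722 FPKM there if its length less the fragment length is 1 kb, and more if it is shorter.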

Other observations

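Where the nearest gene was protein-coding and itself tested, the intergenic loci were compared with it. Among all stranded loci tested 33.3% were higher and 29.1% lower in SSCiPSC, and the counts below are to be read against these shares. Of loci higher in SSCiPSC than in SSC and lying past the end of their gene, 17 had a gene that was also higher (11 genes), 8 a gene that was lower (4 genes) and 29 a gene that did not pass (7 genes). Of those before the start of their gene, 20 had a higher gene (10 genes), 4 a lower gene (1 gene) and 14 a gene that did not pass (11 genes). Of the loci lower in SSCiPSC, 4 before the start of a gene had a lower gene (1 gene) and 3 a higher gene (1 gene), and past the end 1 had a lower gene and 2 a higher gene.

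Both directions met in 2 clusters. At chr8:107657363-107680234, near Gm8940, 2 loci were higher and 1 lower in SSCiPSC, and the cluster stood at 1.01, 0.632 and 1.17 FPKM in SSC and 5.88 to 8.88 FPKM in iPSC. At chr17:64218051-64221333, near Pja2, which encodes a ubiquitin ligase, 1 locus was higher and 1 lower of 3 tested. The cluster of 5 loci at chr8:75362505-75366250, near the pseudogene Umpk-ps, was abundant in every library, at 94.4, 55.8 and 64.5 FPKM in SSC and 22.8 to 35.3 FPKM in iPSC, and 3 of its loci were lower in SSCiPSC.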
